A study of Homo sapiens with 6 samples.

Results

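The 10 genes described here are targets of the transcriptional coactivators YAP and TAZ and of their DNA-binding partners, the TEAD factors, together with the genes of both coactivators. They were chosen by name as readouts of cell tension, and all 10 were found among the 17064 genes of the expression table. They are CYR61 (now CCN1), CTGF (now CCN2), ANKRD1, AMOTL1, AMOTL2, LATS2, AXL, AJUBA, YAP1 and WWTR1, which encodes TAZ.

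YAP and TAZ carry no DNA-binding domain of their own and act on genes through TEAD factors. The Hippo kinases LATS1 and LATS2 phosphorylate them, which keeps them in the cytoplasm, whereas cell spreading, stiff surroundings and actomyosin contraction favour their entry into the nucleus. Several targets, among them LATS2 and the angiomotins, in turn restrain YAP and TAZ, so that the pathway feeds back on itself.

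RNA was sequenced from subconfluent cultures of MDA-MB-231, an established human line of triple-negative breast cancer with a mesenchymal shape. MRCKα and MRCKβ, encoded by CDC42BPA and CDC42BPB, are kinases that bind active CDC42 and promote phosphorylation of myosin light chain, and the question addressed was how their loss changed expression. The vector control had 2 libraries, each from its own transduction of the empty lentiviral vector. There was 1 library of MRCKα KO, 1 of MRCKβ KO and 2 of DKO, in which both genes were targeted, with another guide set in each. All groups carried the lentiviral CRISPR vector and were selected with a drug, and the knockouts were used as pools of cells without clone picking. Libraries held between 10349898 (vector 2) and 10657857 (vector 1) expected counts. With separate transductions in one group and different guides in the other, p-values measure the spread between these libraries.

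The targeted genes were examined first. CDC42BPA stood at 36.4 and 23.3 FPKM (fragments per kilobase of transcript, scaled to the library total) in vector 1 and 2, 29.4 with MRCKα KO, 34.9 with MRCKβ KO, and 28.3 and 26.1 in DKO 1 and 2, and thus within the range of the vector libraries in every knockout. CDC42BPB stood at 30.3 and 29.1 FPKM in vector 1 and 2, 27.3 with MRCKα KO, 25.7 with MRCKβ KO, and 23.4 and 23.5 in DKO 1 and 2. Its 3 libraries from cells targeted for MRCKβ were the lowest of the 6. In DKO against vector the log2 fold change of CDC42BPB was -0.37 (SE 0.11), with an unadjusted p of 0.0132 and an adjusted p of 1 (edgeR quasi-likelihood test, Benjamini-Hochberg). Small insertions or deletions made by a guide need not lower the mRNA. The study examined the loss of both kinases at the protein level, which was not analysed here.

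Markers of a mesenchymal-like breast cancer line were abundant and most luminal markers low. Vimentin (VIM) lay between 1532 and 2052 FPKM, while the progesterone receptor (PGR) did not pass 0.03 FPKM, FOXA1 0.17, E-cadherin (CDH1) 0.64 and the estrogen receptor (ESR1) 0.87 in any library. The other luminal and epithelial genes of that list were not absent, with GATA3, its most abundant gene, between 2.59 and 4.18 FPKM and EPCAM between 0.73 (MRCKα KO) and 2.62 (vector 1). Of 7 fibroblast genes the sum was 11.2 and 3.75 FPKM in vector 1 and 2, 4.67 with MRCKα KO, 7.29 with MRCKβ KO, and 6.13 and 4 in DKO 1 and 2. PDGFRB was the most abundant of them by the mean over all libraries, but COL1A1 led in vector 2 (2.27 against 1.35 FPKM) and DKO 2 (2.56 against 1.14). PDGFRA reached no more than 0.03 FPKM, and DCN, LUM and PDGFRA were at 0 in vector 2. The sum was highest in vector 1, and its part in the results was not tested. Of 3 leukocyte genes, PTPRC was the most abundant, between 0.28 (vector 2) and 1.24 FPKM (MRCKα KO), and CD3E had 1 expected count in vector 2 and 0 elsewhere. ITGAM was at 0 in all libraries but DKO 1 and 2, where it had 4 and 9 expected counts (0.10 and 0.25 FPKM), and this difference was not tested.

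HEK293T cells, a kidney-derived line, were used to package the virus. Of 3 genes chosen as HEK293T markers, NEFL was not analysed here, and NEFM and LIN28B summed to 0.83 FPKM in MRCKα KO and 0.10 in DKO 1. Both were at 0 in vector 1, vector 2, MRCKβ KO and DKO 2. In MRCKα KO they had 19 and 10 expected counts, with 2 and 1 in DKO 1, and NEFM was the more abundant. The MRCKα KO library therefore stood apart in these genes, and their part in its values was not tested.

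In the vector control, the mean levels of the 10 genes spanned from 11.1 FPKM for LATS2 to 718 for CYR61, and all 10 passed the filter on low counts. CYR61 ranked at 62 among all genes by mean FPKM, AXL at 170, ANKRD1 at 178 and CTGF at 259. The 2 vector libraries of CYR61 lay above those of every other member. AXL and ANKRD1 overlapped, as did ANKRD1 and CTGF. AJUBA, at 86.4 FPKM, followed, then YAP1 at 51.4 ± 4.66 (SD, n = 2) and AMOTL2 at 47.0 ± 3.50, which overlapped. WWTR1 at 19.7, AMOTL1 at 14.8 and LATS2 at 11.1 FPKM closed the order without overlap between their vector libraries. Since these are bulk samples, fewer cells expressing a gene and less RNA of it per cell cannot be told apart.

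**Figure D1:**
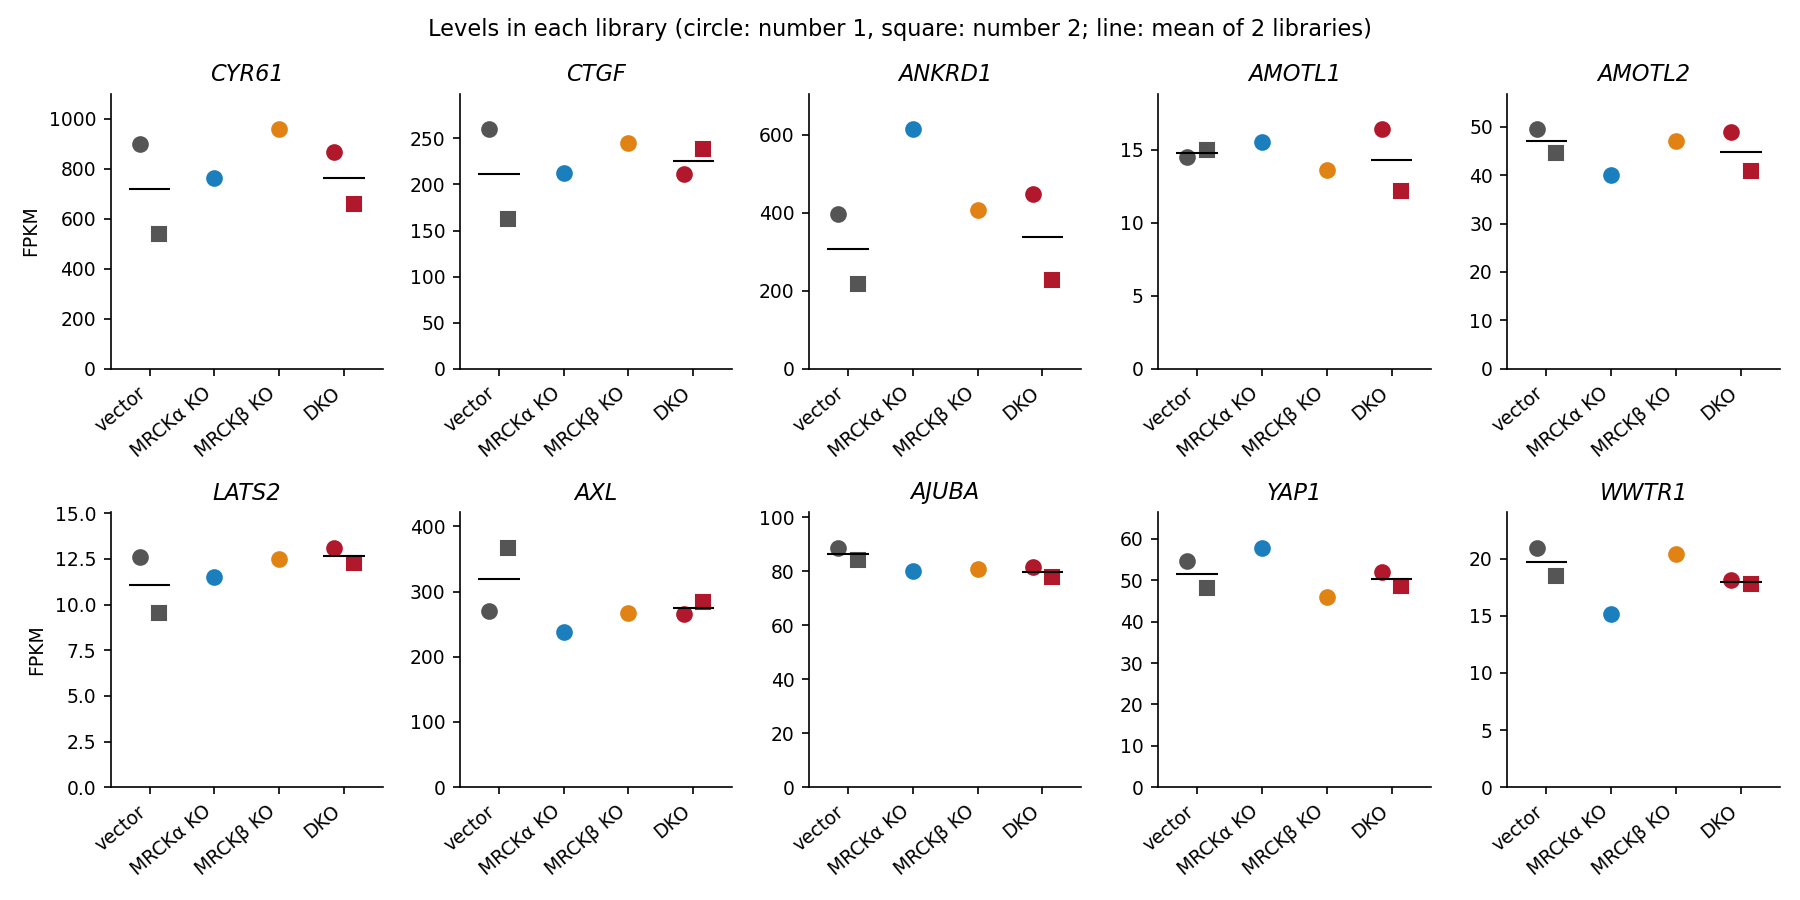
FPKM of each of the 10 genes (vertical axes from 0) in vector control, MRCKα KO, MRCKβ KO and DKO, with 1 point per library and a line at the mean where a group has 2 libraries. CYR61, CTGF and ANKRD1 had vector libraries far apart, at 898 and 537, 259.8 and 163, and 398 and 217 FPKM, and ANKRD1 was highest in MRCKα KO at 614 FPKM.

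CYR61 and CTGF encode secreted matricellular proteins and are the most widely used readouts of YAP activity. ANKRD1 encodes an ankyrin repeat protein of the nucleus and the sarcomere that also serves as such a readout. Promoter windows from RefSeq (GRCh38.p14), from 250 bases before to 50 after a start site, were matched by gene ID for 9 of the 10 genes, with 13 windows in all. CYR61 had no entry. The windows of CTGF (chr6:131951323-131951622, minus strand) and ANKRD1 (chr10:90921038-90921337, minus strand) are shown because these genes held more copies of the TEAD motif than the other members. Capitals mark the 6 letters GGAATG, the motif searched, which was looked for on both strands (CATTCC on the other) and overlaps no match of the AP-1 motif given further on.
CTGF: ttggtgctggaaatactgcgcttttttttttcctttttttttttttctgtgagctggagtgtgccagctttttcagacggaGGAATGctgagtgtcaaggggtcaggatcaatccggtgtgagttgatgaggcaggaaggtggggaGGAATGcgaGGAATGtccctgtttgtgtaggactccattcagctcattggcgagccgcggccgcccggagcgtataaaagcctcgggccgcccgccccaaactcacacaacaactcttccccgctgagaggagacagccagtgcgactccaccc
ANKRD1: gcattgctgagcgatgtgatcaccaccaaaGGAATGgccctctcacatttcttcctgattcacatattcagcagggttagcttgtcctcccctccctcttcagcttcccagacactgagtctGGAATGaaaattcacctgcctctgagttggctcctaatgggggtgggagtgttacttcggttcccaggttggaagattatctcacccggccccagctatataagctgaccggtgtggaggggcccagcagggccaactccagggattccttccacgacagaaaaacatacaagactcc

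The CTGF window held 3 copies, with first bases at positions -169, -104 and -95 from the start, and the ANKRD1 window held 2, at -220 and -128, all on the strand of the gene. Of all 35116 windows, 14.0% held at least 1 copy, 1.37% at least 2 and 0.128% at least 3. LATS2 (9 bases after the start) and YAP1 (-162) had 1 copy in their only window. AMOTL2 (-69), AXL (-212) and AJUBA (-59) had 1 in the second of their 2 windows, those of AMOTL2 and AXL on the other strand. No copy was found for AMOTL1 or in either window of WWTR1. In total 7 of the 13 windows and 7 of the 9 genes held the letters, against 16.7% of all genes with a window. The AP-1 motif TGANTCA, which reads the same on both strands, was found once among the members, in ANKRD1 at -195, and in 7.71% of all windows. A match is a description of these letters and not a site, and nothing follows from a window without one.

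CYR61 (Entrez gene 3491, chr1:85580761-85583962, plus strand; gene positions here and further on are from GENCODE 29 on GRCh38) was at 898 and 537 FPKM in vector 1 and 2, 763 with MRCKα KO, 958 with MRCKβ KO, and 869 and 660.4 in DKO 1 and 2. Both DKO libraries lay between the vector libraries. The mean was 718 ± 255 (SD, n = 2) in vector and 765 ± 147 (SD, n = 2) in DKO, and the fitted log2 fold change was 0.07 (SE 0.26, 95% interval -0.57 to 0.71, adjusted p = 1, edgeR quasi-likelihood test with Benjamini-Hochberg adjustment). MRCKβ KO was above both vector libraries, 1.07-fold over vector 1 and 1.78-fold over vector 2.

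CTGF (Entrez gene 1490, chr6:131948176-131951373, minus strand) was at 259.8 and 163 FPKM in vector 1 and 2, 212 with MRCKα KO, 245 with MRCKβ KO, and 211 and 239 in DKO 1 and 2. All 4 knockout libraries lay between the vector libraries, which were the highest and the lowest of the 6. The vector mean was 211 ± 68.7 (SD, n = 2) and the DKO mean 225 ± 19.8 (SD, n = 2), with a fitted log2 fold change of 0.07 (SE 0.22, 95% interval -0.47 to 0.61).

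ANKRD1 (Entrez gene 27063, chr10:90912096-90921276, minus strand) was the most variable member, at 398 and 217 FPKM in vector 1 and 2, 614 with MRCKα KO, 408 with MRCKβ KO, and 448 and 227 in DKO 1 and 2. The levels of vector and DKO overlapped almost completely, with means of 307 ± 128 and 337 ± 156 (SD, n = 2 each). The fitted log2 fold change was 0.12 (SE 0.39, 95% interval -0.82 to 1.05), the widest interval among the 10 genes. Its highest library was 2.83 times its lowest, and 0.656% of the 9456 genes with at least 100 counts in every library had a ratio as wide. The same ratio was 1.78 for CYR61 (7.10% of genes as wide or wider), 1.60 for CTGF (13.9%) and 1.14 for AJUBA (92.7%), the narrowest of the members.

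The direction of these 3 genes in DKO rested on single libraries. Without vector 2 the log2 fold change was -0.25 for CYR61, -0.23 for CTGF and -0.25 for ANKRD1. Without DKO 1 it was -0.15 for CYR61 and -0.47 for ANKRD1, and without DKO 2 it was -0.02 for CTGF. Vector 2 was the lowest of the 6 libraries for 4 of the 10 genes (ANKRD1, CTGF, CYR61 and LATS2) and for 24.2% of all genes tested.

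**Figure D2:**
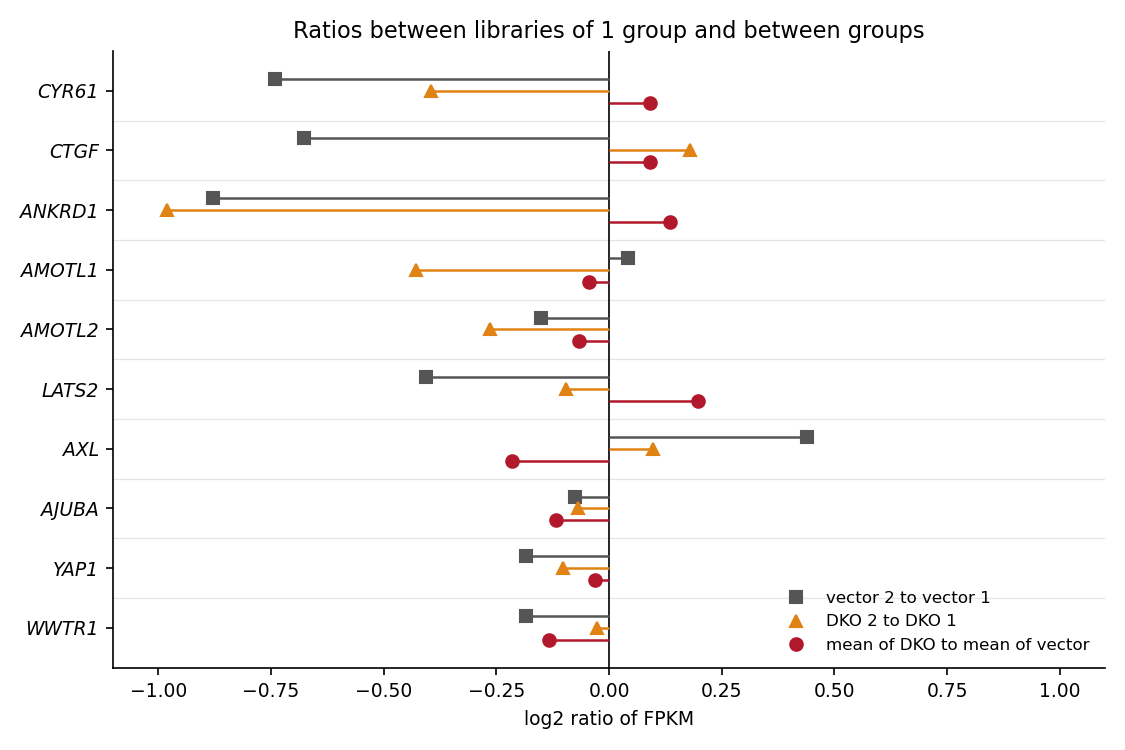
Log2 ratios of FPKM for the 10 genes between vector 2 and vector 1 (squares), between DKO 2 and DKO 1 (triangles) and between the means of DKO and vector (circles). For CYR61, CTGF and ANKRD1 the ratios of vector 2 to vector 1 were 0.598, 0.626 and 0.544, each farther from 1 than the ratios of the group means, 1.07, 1.07 and 1.098.

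The vector libraries were at least 1.5-fold apart for 3 of the 10 genes (ANKRD1, CTGF and CYR61), against 18.6% of all genes tested. The DKO libraries were so for 1 (ANKRD1, with a ratio of 0.507), against 12.2%. For CYR61, CTGF and ANKRD1 the spread within a group was thus larger than the difference between the groups. In AJUBA alone the ratio of the means, 0.922, was farther from 1 than both ratios within groups, 0.949 in vector and 0.954 in DKO.

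Of the members with roles in feedback and restraint of the pathway, the ratio of the highest to the lowest library was 1.34 for AMOTL1, 1.24 for AMOTL2 and 1.38 for LATS2, and 44.3%, 70.1% and 38.2% of genes with at least 100 counts in every library were as wide or wider. AMOTL1 and AMOTL2 encode angiomotin-like proteins, which bind YAP at cell junctions and along actin. AMOTL1 (Entrez gene 154810, chr11:94706431-94876753, plus strand) was at 14.5 and 14.97 FPKM in vector 1 and 2, 15.5 with MRCKα KO, 13.6 with MRCKβ KO, and 16.4 and 12.2 in DKO 1 and 2. DKO thus held both its highest and its lowest library. The transcript length that enters FPKM differed by 1.26 times between libraries for AMOTL1, from 7099 to 8934 bases, and by no more than 1.07 times for any other member, so its FPKM and counts follow each other less closely. Its log2 fold change from counts was -0.10 (SE 0.17), which became 0.04 without vector 1 and 0.06 without DKO 2.

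AMOTL2 (Entrez gene 51421, chr3:134355874-134375479, minus strand) was at 49.5 and 44.5 FPKM in vector 1 and 2, 40.03 with MRCKα KO, 47.2 with MRCKβ KO, and 49.0 and 40.8 in DKO 1 and 2. MRCKα KO was the lowest library, and the DKO libraries lay on either side of vector 2. The log2 fold change in DKO was -0.09 (SE 0.14), and 0.04 without DKO 2.

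LATS2, the kinase that phosphorylates YAP and TAZ (Entrez gene 26524, chr13:20973032-21061547, minus strand), was at 12.6 and 9.51 FPKM in vector 1 and 2, 11.5 with MRCKα KO, 12.5 with MRCKβ KO, and 13.1 and 12.3 in DKO 1 and 2. Vector 2 was the lowest, and the other 5 libraries lay close together. Its log2 fold change in DKO, 0.19 (SE 0.17, 95% interval -0.21 to 0.60), was the highest of the 10 genes, and it was 0.01 without vector 2.

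AJUBA encodes a LIM protein that binds LATS kinases at junctions under tension (Entrez gene 84962, chr14:22971174-22982642, minus strand). It was at 88.7 and 84.2 FPKM in vector 1 and 2, 80.1 with MRCKα KO, 80.9 with MRCKβ KO, and 81.5 and 77.8 in DKO 1 and 2. All 4 knockout libraries lay below both vector libraries. Both DKO libraries did so for 12.3% of all genes tested, and the share for all 4 knockout libraries was not computed. The group means were 86.4 ± 3.17 in vector and 79.6 ± 2.65 in DKO (SD, n = 2 each), and the log2 fold change of -0.17 (SE 0.11, 95% interval -0.43 to 0.10) had an adjusted p of 1 by the edgeR quasi-likelihood test with Benjamini-Hochberg adjustment.

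AXL, a receptor tyrosine kinase for GAS6 that marks mesenchymal breast cancer cells (Entrez gene 558, chr19:41219203-41261766, plus strand), was at 271 and 367 FPKM in vector 1 and 2, 237 with MRCKα KO, 267 with MRCKβ KO, and 265 and 284 in DKO 1 and 2. Vector 2 was the highest library, in contrast to CYR61, CTGF and ANKRD1, and the other 5 lay between 237 and 284. The vector mean was 319 ± 68.0 and the DKO mean 275 ± 13.1 (SD, n = 2 each). The log2 fold change of -0.24 (SE 0.17, 95% interval -0.65 to 0.18) was the lowest of the 10 genes in DKO, and without vector 2 it was 0.00093.

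Of the coactivators, YAP1 (Entrez gene 10413, chr11:102110461-102233423, plus strand) was at 54.7 and 48.1 FPKM in vector 1 and 2, 57.8 with MRCKα KO, 45.9 with MRCKβ KO, and 52.1 and 48.6 in DKO 1 and 2. The single knockouts were the highest and the lowest libraries, and both DKO libraries lay within the vector range. The log2 fold change in DKO was -0.05 (SE 0.12), and 0.04 without vector 1.

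WWTR1 (Entrez gene 25937, chr3:149517235-149736714, minus strand) was at 20.9 and 18.4 FPKM in vector 1 and 2, 15.2 with MRCKα KO, 20.4 with MRCKβ KO, and 18.1 and 17.8 in DKO 1 and 2. The 3 libraries from cells targeted for MRCKα were the lowest, although DKO 1 and vector 2 differed by little. The log2 fold change in DKO was -0.15 (SE 0.13, 95% interval -0.45 to 0.16). Expected counts of AXL, AJUBA and WWTR1 were not whole numbers, so that part of their reads was shared among genes, and their levels are less certain in this respect than those of the other 7.

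Over all 10 genes, DKO against vector gave no call. In the edgeR quasi-likelihood test with Benjamini-Hochberg adjustment at 0.05, 0 of 10 members passed, as did 0 of 13123 genes tested (0%), and 4 genes, none of them a member, passed with DESeq2. At an unadjusted p under 0.05 there were 0 of 10 members, against 313 genes (2.39%). Without vector 1 there were 4 (AXL, CTGF, CYR61 and LATS2), against 1154 of 13417 genes (8.60%), and none of these 4 members passed after adjustment. The fitted log2 fold change was above 0 for 4 members and below 0 for 6, with a median of -0.07. Over all genes tested it was above 0 for 6465 and below 0 for 6658, with a median of -0.0024.

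The libraries of the groups mostly overlapped. Both DKO libraries were below both vector libraries for 2 members (AJUBA and WWTR1), against 12.3% of all genes, and above both for 0 members, against 17%. The 95% intervals of 9 members lay within a 2-fold change in either direction. The exception was ANKRD1, with an interval from 0.567-fold to 2.07-fold. With the replicate number as a block, an alternative described further on, its interval was 0.90-fold to 1.27-fold. Neither the labels nor the study's methods tie this number to a batch. Leaving out 1 library moved the log2 fold change of ANKRD1 between -0.47 and 0.62, so the narrower interval does not settle its range.

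**Figure D3:**
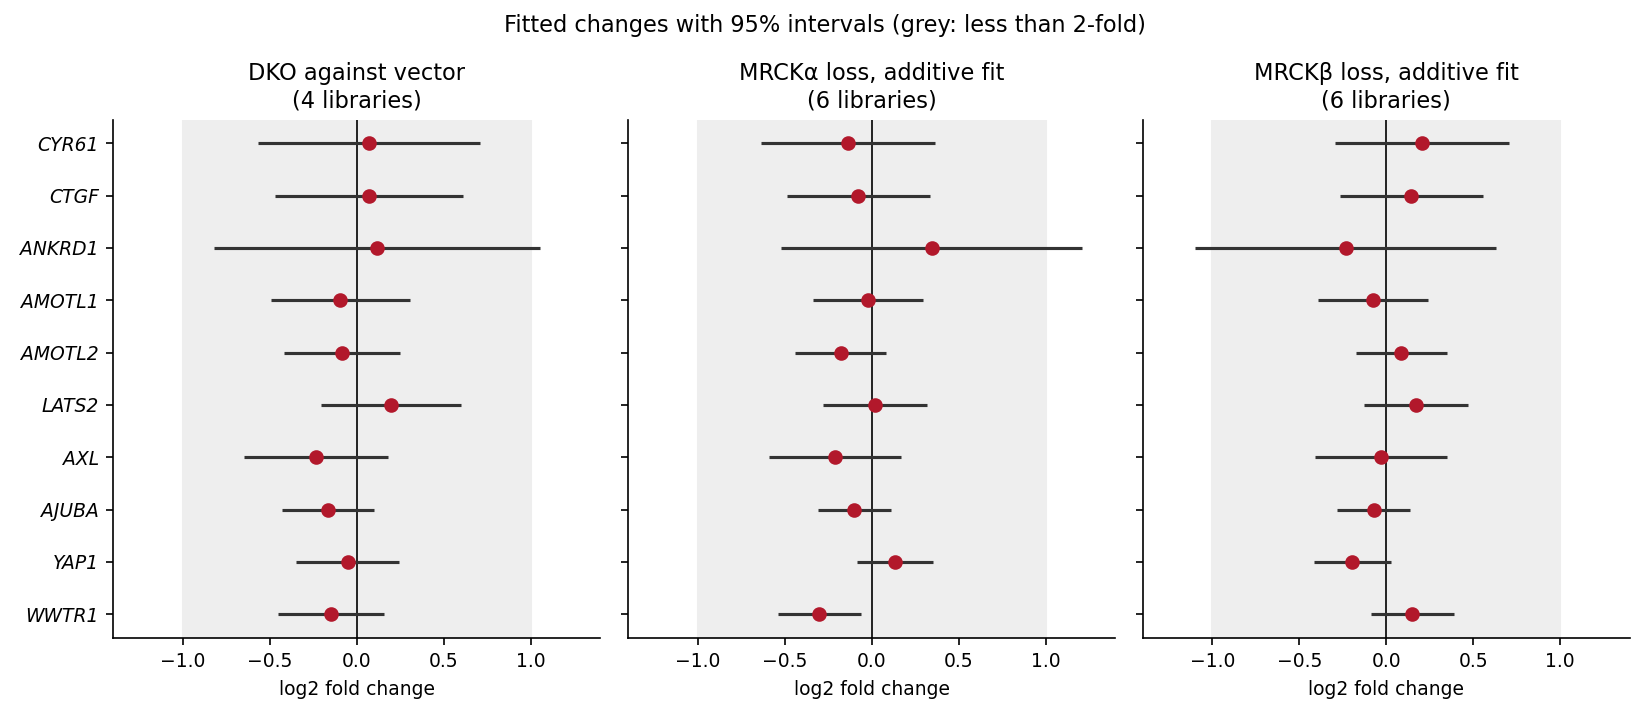
Fitted log2 fold changes (points) and 95% intervals (lines) of the 10 genes for DKO against vector, and for loss of MRCKα and of MRCKβ in the additive fit, with the range of less than 2-fold in grey. Only the interval of WWTR1 for MRCKα loss, -0.54 to -0.06, did not hold 0, and it is not adjusted for the number of genes.

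The single knockouts have 1 library each, so that their own differences have no replicate check, and they share the vector libraries with the DKO comparison. By a rule of a 2-fold change in FPKM against the mean of the vector libraries, leaving out genes more than 2-fold apart between replicates, 0 of 10 members passed in MRCKα KO (4.42% of the 12864 genes compared), 0 in MRCKβ KO (3.53%) and 0 in DKO (1.78%). The rule comes from the study, which also left out poorly expressed genes at a limit not given in the sources used here, and the shares above include such genes. With a mean of at least 1 FPKM in either group the shares were 1.44%, 0.828% and 0.43%, again with 0 members. ANKRD1 in MRCKα KO lay just under the threshold, at 1.998-fold. It was 1.54-fold over vector 1 and 2.83-fold over vector 2, so that it passed with vector 2 as the only control. The exact 95% interval of its reads against both vector libraries together was 1.94-fold to 2.04-fold, which covers counting error only.

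In MRCKα KO the ratio to the vector mean was 0.772 for WWTR1, 0.744 for AXL and 0.852 for AMOTL2, and between 0.927 and 1.12 for the remaining 6 besides ANKRD1. MRCKα KO lay above both vector libraries for 3 members (AMOTL1, ANKRD1 and YAP1; 32.4% of all genes) and below both for 4 (AJUBA, AMOTL2, AXL and WWTR1; 27%). In MRCKβ KO the ratio was 1.33 for CYR61 as well as for ANKRD1, 1.16 for CTGF and 0.837 for AXL. This library was above both vector libraries for 2 members (ANKRD1 and CYR61; 30.1%) and below both for 4 (AJUBA, AMOTL1, AXL and YAP1; 29.1%). These shares are those of 1 library outside a range set by 2.

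An additive fit over all 6 libraries, with a term for loss of MRCKα and another for loss of MRCKβ, set 3 libraries against 3 for each gene and assumed that both losses add on the log scale. With adjustment, 0 of 10 members and 0% of the 13764 genes tested passed for either loss by the edgeR quasi-likelihood test, while DESeq2 called 9 genes for MRCKα and 8 for MRCKβ, with no member among them. At an unadjusted p under 0.05 there was 1 member (WWTR1) for MRCKα loss, against 3.68% of genes, and 0 for MRCKβ loss, against 2.04%. Without vector 2 there were 3 (CTGF, CYR61 and WWTR1) for MRCKα loss, against 9.87% of genes, and 1 (YAP1) for MRCKβ loss, against 3.79%. The log2 effect of MRCKα loss on WWTR1 was -0.30 (SE 0.10, unadjusted p = 0.0201, adjusted p = 0.999, edgeR quasi-likelihood test, Benjamini-Hochberg). The value stayed between -0.40 and -0.21 when any 1 library was left out, and without MRCKα KO its unadjusted p was 0.215 in the same edgeR test.

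All 3 libraries from cells targeted for MRCKα were below all 3 others for 1 member (WWTR1), against 4.06% of genes, and above for 0 members, against 6.38%. For MRCKβ these were 0 members below, against 3.63%, and 0 above, against 4.45%. The effect of MRCKα loss on ANKRD1 was 0.35 (SE 0.37) and turned to -0.29 without the MRCKα KO library. For MRCKβ loss the lowest unadjusted p among the members was that of YAP1, 0.0747, at a log2 effect of -0.19 (SE 0.09).

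Other genes of the pathway were taken from lists. Among 20 further targets of YAP and TEAD, 12 were higher and 8 lower in DKO, with a median log2 fold change of 0.05, and none passed after adjustment. With an unadjusted p under 0.05 (edgeR quasi-likelihood test) there were 2, both higher, against 313 of all 13123 genes tested (2.39%), 179 of them higher. Without vector 1 there were 6 higher and 3 lower, against 8.60% of all genes, and without DKO 2 there were 0, against 1%. GADD45A, a stress-induced regulator of growth arrest, was at 21.4 and 31.6 FPKM in vector 1 and 2, 38.6 with MRCKα KO, 36.4 with MRCKβ KO, and 40.7 and 51.6 in DKO 1 and 2, with a log2 fold change of 0.81 (SE 0.24). All 4 knockout libraries of GADD45A were above both vector libraries. Both DKO libraries were so for 17% of all genes tested, and the share for all 4 knockout libraries was not computed. RBMS3, an RNA-binding protein, had a log2 fold change of 0.36 (SE 0.14). NT5E (CD73) and EDN1 (endothelin-1), next by p, were at -0.31 (SE 0.15) and 0.44 (SE 0.31).

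Vector 2 was the lowest library for 7 of these 20 genes, against 24.2% of all genes tested. Among the 7 were TGFB2, which encodes a TGF-β ligand, and EDN1. TGFB2 was at 50.3 and 18.7 FPKM in vector 1 and 2, 52.9 with MRCKα KO, 49.5 with MRCKβ KO, and 48.2 and 34.2 in DKO 1 and 2. F3, which encodes tissue factor, was the most abundant of the list, with 226 to 383 FPKM.

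Of 18 Hippo kinases and adaptors, 17 were tested in DKO, with 10 higher, 7 lower and a median of 0.04. None had an unadjusted p under 0.05 (edgeR quasi-likelihood test), against 2.39% of all 13123 genes tested. Of all these genes, 6465 were higher and 6658 lower. The lowest p values were those of WWC1 (KIBRA), at a log2 fold change of 0.29 (SE 0.12), FRMD6, at -0.29 (SE 0.13), LATS1, at 0.24 (SE 0.14), and STK3 (MST2), at -0.26 (SE 0.16). SAV1, the scaffold of the MST kinases, was at 39.9 and 20.7 FPKM in vector 1 and 2, 38.9 with MRCKα KO, 41.1 with MRCKβ KO, and 36.9 and 22.1 in DKO 1 and 2, and was named after its values were seen.

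AMOT, the angiomotin gene itself, was close to 0 in all libraries but MRCKα KO. It had 56 expected counts there (0.73 FPKM) and 0 in vector 1, 1 in vector 2, 0 with MRCKβ KO, and 4 and 2 in DKO 1 and 2. This is the library in which NEFM and LIN28B stood at 0.65 and 0.18 FPKM, and whether these values belong together was not tested. AMOT was not among the genes tested in DKO. In the additive fit its counts came almost entirely from 1 library, so no p is given for it.

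The TEAD genes were all expressed. Of 8 TEAD and VGLL genes VGLL1 and VGLL2 were not analysed here. Of the other 6 in DKO 5 were higher and 1 lower, with a median of 0.07, against 6465 higher and 6658 lower of all genes tested. At an unadjusted p under 0.05 (edgeR quasi-likelihood test) there were none of the 6, against 2.39% of all genes. TEAD1 was the most abundant, at 53.5 and 42.1 FPKM in vector 1 and 2 and 50.1 and 53.3 in DKO 1 and 2. The log2 fold change was 0.22 (SE 0.14) for TEAD3, -0.12 (SE 0.15) for TEAD4, 0.09 for TEAD1 and 0.08 for TEAD2.

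SRF and its actin-regulated cofactors MRTF form a second transcriptional route that responds to actin. Of 11 of their targets 10 were tested in DKO, with 4 higher and 6 lower and a median of -0.0083. None had an unadjusted p under 0.05 (edgeR quasi-likelihood test). Over all 13123 genes tested, 6465 were higher and 6658 lower, and 2.39% had such a p. SRF itself had a log2 fold change of 0.33 (SE 0.14, unadjusted p = 0.0507 in the edgeR quasi-likelihood test). ACTA2, CNN2 and TPM1 followed by p, at 0.48 (SE 0.44), -0.17 (SE 0.16) and -0.18 (SE 0.19).

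Immediate early genes are, like CYR61 and CTGF, induced quickly by serum. Of 13 such genes 12 were tested, 11 were higher and 1 lower, 5 had an unadjusted p under 0.05, all higher, and the median log2 fold change was 0.62. Over all 13123 genes tested, 6465 were higher and 179 of these had an unadjusted p under 0.05. Without vector 1 there were 8 of 13, again all higher, against 8.60% of all genes. None of the immediate early genes passed after adjustment in edgeR or DESeq2 with both libraries of each group, whereas EGR1 passed in edgeR without DKO 1. The list as a whole was not tested. It was chosen with earlier results of these data known, so its counts beside those of all genes are a description only. EGR1, a zinc finger transcription factor, was at 12.5 and 6.81 FPKM in vector 1 and 2, 23.2 with MRCKα KO, 18.1 with MRCKβ KO, and 37.5 and 70.8 in DKO 1 and 2, with a log2 fold change of 2.47 (SE 0.39). ATF3, IER3 and JUNB had log2 fold changes of 1.28 (SE 0.25), 0.55 (SE 0.14) and 0.68 (SE 0.17). CYR61 and CTGF had log2 fold changes of 0.07 each, with 0.26 and 0.22 as SE.

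As a description of likeness, Pearson's r of log2 CPM (counts scaled to the library total) over the 6 libraries was computed between CYR61 or CTGF and the other 9455 genes with at least 100 counts in every library. The genes most like CYR61 were SMAD3 (0.996), RICTOR (0.994), SULF2 (0.994), RHOF (0.994) and PAQR5 (0.993). SMAD3 had 211 and 146 CPM in vector 1 and 2, 188 with MRCKα KO, 225 with MRCKβ KO, and 213 and 165 in DKO 1 and 2. Those most like CTGF were TECR (0.993), PRRC2B (0.989), CDK19 (0.983), KIAA1147 (0.982) and FAT4 (0.980). TECR had 282 and 205 CPM in vector 1 and 2, 249 with MRCKα KO, 267 with MRCKβ KO, and 247 and 265 in DKO 1 and 2. No p was computed for these values. Neither list held another of the 10 genes, and with so few genes out of 9455 in each, nothing follows from that.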

How the data were processed

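Samples were grouped by their labels. The authors had single-end reads of 50 bases made by BGI, and the submitters' notes name HISAT, Bowtie2 and RSEM, without versions, and GRCh38.p11. Expected counts as deposited estimate how many reads came from a gene and are not normalized. The deposited FPKM values, per transcript length and library total, are rounded to 2 decimals. Levels and ratios were read from FPKM. Tests used expected counts rounded to whole numbers, in R 4.3.3 with edgeR 4.0.16 (filterByExpr, TMM, glmQLFit, glmQLFTest) across all genes, with Benjamini-Hochberg adjustment at 0.05, and the code was tested on simulated data. Alternatives were DESeq2 1.42.0, limma 3.58.1 on log2 FPKM, other normalizations and filters, a replicate term and leaving out each library.

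The 10 genes and the lists were chosen with earlier results of these data known. Text names the members, the targeted genes, the 4 lowest p values of each pathway list, genes that show what a list holds, and the 5 genes most like CYR61 and CTGF. AMOT, SAV1 and TGFB2 were named after their values were seen. The counts of libraries that lie outside others, the 1.5-fold limit and the ratio of highest to lowest library were also added then. Some genes of the lists are not reported here. Promoter windows came from RefSeq, and figures were drawn with matplotlib. Intervals from reads cover counting error only.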

Additional observations from a re-analysis of the deposited data

How the results depend on the processing

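No member passed an adjusted p of 0.05 in any alternative. DKO against vector called 0 genes with upper-quartile, RLE or library-size normalization, other filters, all 6 libraries in one fit and limma, but 4 with DESeq2. For MRCKα loss DESeq2 called 9 genes and for MRCKβ loss 8, against 0 each in edgeR. Leaving out 1 library gave 0 to 5 calls in DKO (5 without DKO 1, 1 without vector 1), 0 to 2 for MRCKα loss (2 without vector 2) and 0 to 0 for MRCKβ loss. Where an arm then held 1 library, it was assumed to vary like the others. Members past the 2-fold rule in MRCKα KO were 0 to 1 when a vector library was left out, with ANKRD1 the 1 without vector 1, and the other alternatives gave 0.

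The replicate numbers are shared by vector and DKO, but neither the labels nor the study's methods tie them to a batch. The difference between number 2 and number 1 in vector had an r of 0.36 with that in DKO across 13123 genes, which are not independent replicates. With the number as a replicate block, 5 genes were called in DKO, 7 for MRCKα loss and 1 for MRCKβ loss, none of them a member. At an unadjusted p under 0.05 the block gave 0 members in DKO, 3 for MRCKα loss (ANKRD1, AXL and WWTR1; 9.26% of genes) and 3 for MRCKβ loss (ANKRD1, CYR61 and YAP1; 6.45%). Of the lists in DKO, it gave 3 higher and 2 lower among 20 further targets, 10 higher among 12 immediate early genes (lowest adjusted p 0.0522), 1 higher and 1 lower among 17 Hippo kinases and adaptors and 1 higher among 10 SRF and MRTF targets, against 397 higher and 399 lower of all genes (6.07%), and no gene of these lists was called.

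No alternative other than leaving out a library turned the direction of a member. In DKO, the log2 fold change then ranged from -0.28 to 0.063 for AMOTL1, -0.23 to 0.039 for AMOTL2, -0.47 to 0.62 for ANKRD1, -0.44 to 0.00093 for AXL, -0.23 to 0.44 for CTGF, -0.25 to 0.49 for CYR61 and -0.14 to 0.039 for YAP1. AJUBA, LATS2 and WWTR1 kept their direction. For MRCKα loss it ranged from -0.15 to 0.10 for AMOTL1, -0.29 to 0.98 for ANKRD1, -0.45 to 0.023 for AXL, -0.21 to 0.068 for CTGF, -0.34 to 0.066 for CYR61 and -0.058 to 0.10 for LATS2. For MRCKβ loss it ranged from -0.16 to 0.020 for AJUBA, -0.20 to 0.052 for AMOTL1, -0.86 to 0.40 for ANKRD1 and -0.27 to 0.21 for AXL. The cause was not tested. At an unadjusted p under 0.05, where the main fit had none, leaving out vector 1 gave 1 higher and 1 lower Hippo gene and as many SRF and MRTF targets. Library size alone gave 1 higher of each list, against 2.59% of all genes tested. The filter of 10 counts gave 1 higher SRF and MRTF target, against 2.39%. In DKO only EGR1, of the 6 lists, passed after adjustment in an alternative, without DKO 1. All members had at least 538 expected counts per library.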
